A study of Mus musculus with 2 samples.

Results

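The IL-1 and IL-18 receptor family was examined here through 8 genes: the IL-1 receptor genes Il1r1 and Il1r2, the receptor antagonist gene Il1rn, the shared accessory chain gene Il1rap, the IL-18 receptor genes Il18r1 and Il18rap, the IL-33 receptor gene Il1rl1 and the inhibitory receptor gene Sigirr. The members were fixed by name, and their probes were found by matching the RefSeq accession printed for each array probe. All 8 were represented, by 15 probes, among 18434 genes named in this way.

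Splenic CD4 T cells of the inbred mouse strain C57BL/6 were sorted magnetically to a purity above 98%. Antibodies to the T cell receptor and CD28 stimulated them for 2 days, and culture went on for 3 more, 5 days in all. Cells of the Th9+IFNgamma group received 3 ng/ml of IL-4, 10 ng/ml of IFN-gamma and 3 ng/ml of TGF-beta. Cells of the Th9 group received 10 ng/ml of IL-4 and the same TGF-beta dose, while 1 µg/ml of an anti-IFN-gamma antibody took the place of the cytokine. Added IFN-gamma, the IL-4 dose and the antibody therefore differed together and cannot be told apart. The cells were wild type by the labels, which give no number of mice. Each culture was hybridised to 1 single-colour Agilent array, so no value has a replicate, no test was possible and the differences describe these 2 arrays.

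Receptors of this family signal in pairs. A ligand-binding chain meets its cytokine, an accessory chain joins, and the TIR domains inside the cell recruit the adaptor MyD88 and kinases of the IRAK family, which lead to NF-kappaB and MAP kinases. IL-1 acts on Th17 cells, IL-33 on Th2 cells and regulatory T cells, and IL-18 acts with IL-12 on Th1 cells, where it favours IFN-gamma production. The family also holds its own brakes: Il1r2 encodes a receptor that binds IL-1 without signalling, Il1rn a ligand that blocks the IL-1 receptor, and Sigirr a chain that dampens signalling.

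The members differ in direction although several are neighbours. In the RefSeq table of the GRCm38.p6 assembly, 5 of the 8 lie side by side on chromosome 1 in the order Il1r2, Il1r1, Il1rl1, Il18r1 and Il18rap, with the IL-36 receptor gene Il1rl2 between Il1r1 and Il1rl1. Il1rn lies on chromosome 2, Sigirr on chromosome 7 and Il1rap on chromosome 16. The end of Il1rl1 and the start of Il18r1 are 133 bases apart. The sequences just upstream of the start site are shown for the 2 IL-18 receptor genes, which were both higher in Th9+IFNgamma, and for the 3 IL-1 genes Il1r2, Il1r1 and Il1rn, which were all lower. Where RefSeq lists several starts, the most upstream one was used. They run 5′ to 3′ on the plus strand of GRCm38.p6, end at the base before the start, and span chr1:40465419-40465551 for Il18r1 (the whole gap after Il1rl1), chr1:40515112-40515361 for Il18rap, chr1:40085843-40086092 for Il1r2, chr1:40224830-40225079 for Il1r1 and chr2:24336610-24336859 for Il1rn. Capitals mark matches to the motifs described after them.
Il18r1: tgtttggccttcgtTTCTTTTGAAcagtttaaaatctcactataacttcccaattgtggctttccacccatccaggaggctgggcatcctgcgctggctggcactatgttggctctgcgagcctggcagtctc
Il18rap: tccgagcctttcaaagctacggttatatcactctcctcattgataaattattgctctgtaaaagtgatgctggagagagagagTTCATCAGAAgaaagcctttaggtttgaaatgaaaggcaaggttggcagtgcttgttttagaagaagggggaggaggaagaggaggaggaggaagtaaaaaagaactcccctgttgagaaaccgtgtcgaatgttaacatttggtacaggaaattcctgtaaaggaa
Il1r2: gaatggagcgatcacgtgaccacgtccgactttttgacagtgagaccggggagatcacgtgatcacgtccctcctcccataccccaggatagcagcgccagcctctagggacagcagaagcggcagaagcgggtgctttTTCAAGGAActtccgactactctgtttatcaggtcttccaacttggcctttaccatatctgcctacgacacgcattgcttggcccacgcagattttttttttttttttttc
Il1r1: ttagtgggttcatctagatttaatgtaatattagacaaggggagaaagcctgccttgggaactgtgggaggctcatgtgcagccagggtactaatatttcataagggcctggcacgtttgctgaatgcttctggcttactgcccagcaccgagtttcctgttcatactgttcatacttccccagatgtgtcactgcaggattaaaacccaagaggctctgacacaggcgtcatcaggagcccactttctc
Il1rn: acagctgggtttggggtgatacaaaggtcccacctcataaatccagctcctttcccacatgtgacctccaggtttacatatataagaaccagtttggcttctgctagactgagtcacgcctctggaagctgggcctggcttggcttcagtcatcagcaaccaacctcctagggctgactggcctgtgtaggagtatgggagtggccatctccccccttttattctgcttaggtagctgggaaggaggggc

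Motifs of 5 kinds were searched on both strands. The gamma-activated site was written as TTCNNNGAA. The wider spacing preferred by STAT6 has the same outer letters with 1 more free base between them. The T-box half-site, which factors such as T-bet bind, was written as GGTGTGA. For GATA factors, among them GATA3 of Th2 cells, the letters searched were AGATAA. For Runx factors, which partner with T-bet in T cells, they were TGTGGT. No matches overlapped in the printed sequences. Both IL-18 receptor sequences held the wider spacing, as TTCTTTTGAA in Il18r1 from base -119 to -110 and as TTCATCAGAA in Il18rap from base -167 to -158, counted from the start site. Of 32851 promoter windows in the table, 5.85% held this motif in 250 bases and 2.79% in 133 bases. Il1r2 held a gamma-activated site, TTCAAGGAA, from base -111 to -103, a motif found in 7.02% of windows of 250 bases. The printed sequences of Il1r1 and Il1rn held none of the 5 motifs. Other listed starts differed: the window of the third Il18r1 start held 2 gamma-activated sites, and both later Il1rn starts, whose windows overlap, held the wider spacing. The windows of Il1rl1 held a GATA site at each of its 2 starts and a Runx site at 1 of them, and that of Il1rap held no match. GATA sites were found in 9.99% of windows of 250 bases and Runx sites in 14.0%. The T-box half-site, present in 3.33% of windows of 250 bases, was found in none of the 13 windows of the 7 members listed. The matches are descriptions of these letters and show no binding.

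Signals were scaled so that both arrays shared a 75th percentile of 598.6. They compare 1 probe between arrays, never different probes. The extraction software attaches an error to each signal, about 10% for bright spots, and intervals below are 95% intervals from that error. They cover the reading of the spots and leave out variation between cultures. In RNA of a whole culture, fewer cells of a type and less RNA per cell cannot be told apart. Of all probes, 60.6% were well above background in Th9+IFNgamma and 59.9% in Th9. A probe was measured when well above background on both arrays. A gene seen on 1 array only has a lower bound, in which the signal of the dim array is replaced by its detection floor, the faintest signal that counted as well above background there (11.1 for Th9+IFNgamma and 12.5 for Th9), unless the dim probe itself read more.

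**Figure D1:**
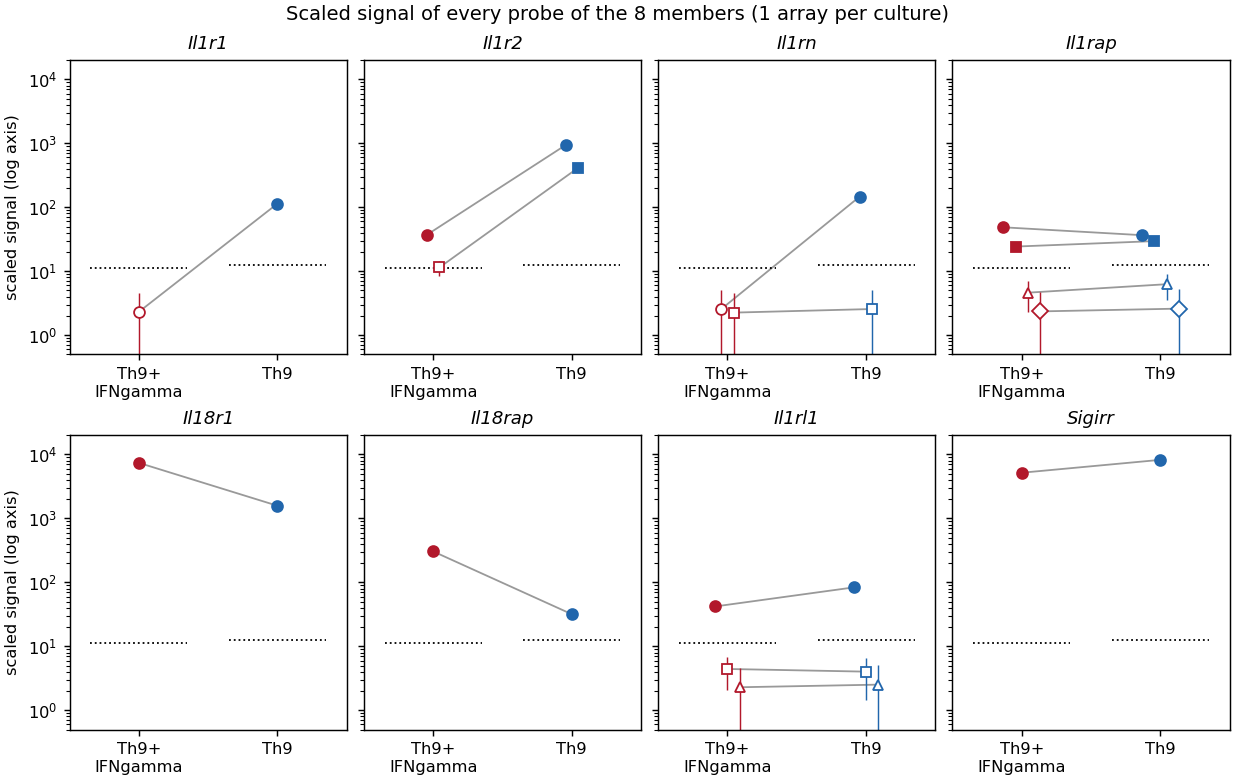
Scaled signal on a log axis for all 15 probes of the 8 members, with Th9+IFNgamma (red) left of Th9 (blue), 1 panel per gene and 1 marker shape per probe within a panel. Filled markers are well above background, open ones are not, dotted lines give the lowest signal well above background on each array, and bars are the software's error (hidden behind most filled markers, and running below the axis for the dimmest open ones). Lines slope up towards Th9 for Il1r1, Il1r2 and 1 Il1rn probe, and down for Il18r1 and Il18rap.

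The 2 chains of the IL-18 receptor were both higher in Th9+IFNgamma. Il18r1, which encodes the chain that binds IL-18, had a scaled signal of 7377 in Th9+IFNgamma against 1576 in Th9, a 4.68-fold difference (log2 difference 2.23, interval 1.83 to 2.63). Il18rap, which encodes the accessory chain needed for signalling, had 304.4 in Th9+IFNgamma against 31.8 in Th9, or 9.58-fold (log2 difference 3.26, interval 2.79 to 3.72). Among 12272 genes measured on both arrays, 125 were as high as or higher than Il18r1 by log2 difference (1.02%) and 40 were as high as or higher than Il18rap (0.326%). The ligand-binding chain was already far above background in Th9, whereas the accessory chain was near background there. Normexp models the background and was run with an offset of 50 added to every spot, which shrinks fold differences of dim probes. With it, the Il18rap difference was 3.56-fold and that of Il18r1 4.73-fold, so that their order turned. Each of these genes was read by 1 probe.

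The IL-1 genes went the other way. Il1r2, the decoy receptor, had 37.2 in Th9+IFNgamma against 935.5 in Th9, 25.2-fold lower (log2 difference -4.65, interval -5.09 to -4.22). Only 12 of the 12272 genes, Il1r2 among them, were as low or lower (0.0978%). Its other probe read 11.5 in Th9+IFNgamma, not well above background, against 412.7 in Th9, which gives at least 36.0-fold. Both Il1r2 probes thus showed a bright Th9 array and a dim Th9+IFNgamma array. With normexp the measured probe was 10.8-fold lower.

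Il1r1 encodes the receptor through which IL-1 signals. Its 1 probe read 2.32 in Th9+IFNgamma, not well above background, against 114.2 in Th9, and the difference was at least 10.3-fold (at least 3.07-fold with normexp). The decoy and the signalling receptor for IL-1 therefore differed in the same direction.

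Il1rn encodes the IL-1 receptor antagonist. One of its 2 probes read 2.56 in Th9+IFNgamma, not well above background, against 147.4 in Th9, at least 13.3-fold lower (at least 3.12-fold with normexp). Its other probe was well above background on neither array, with 2.26 in Th9+IFNgamma and 2.57 in Th9, although the array annotation assigns both to the same transcript. The Il1rn difference thus rests on 1 of 2 probes.

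Counting all members, 6 were measured on both arrays. Of these, 2 (Il18r1 and Il18rap) were higher in Th9+IFNgamma by 2-fold or more, where 5.15% of all measured genes were, and 1 (Il1r2) was lower by that much, where 7.42% were. Another 2 were detected in Th9 only and had bounds beyond 2-fold, which held for 1.72% of the 13227 genes detected on any array. The other 3 lay within 2-fold. The median log2 difference was -3.73 over the 3 genes Il1r1, Il1r2 and Il1rn, with bounds taken at their bound, and 2.74 over Il18r1 and Il18rap, a gap of -6.47 between the medians. Even the nearest values of these groups, Il1r1 at its bound and Il18r1, lay 5.59 apart on the log2 scale. The median over the 8 members was -0.83, beside -0.01 over all measured genes. With normexp the gap between medians was -3.68.

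**Figure D2:**
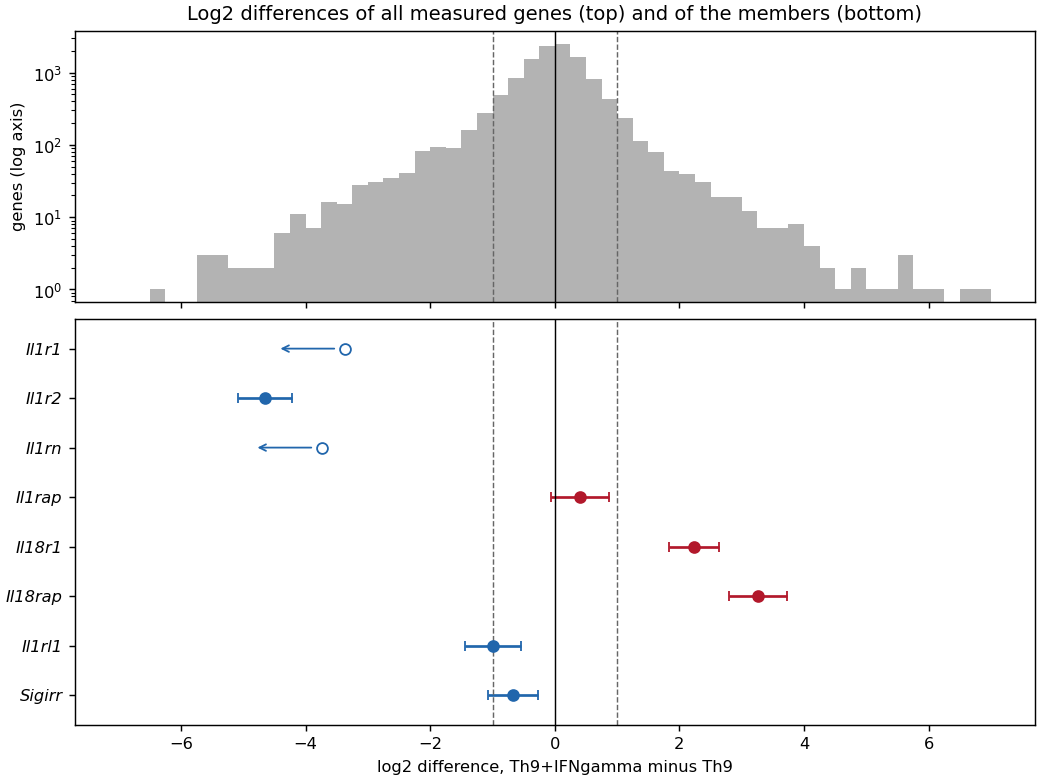
Log2 difference, Th9+IFNgamma minus Th9, for 12272 measured genes (top, number of genes on a log axis in bins of the difference) and for the 8 members (bottom). Filled points carry 95% intervals from the software's error, open points with arrows are bounds, and dashed lines mark 2-fold. Il18r1 and Il18rap lie right of the upper line, Il1r2, Il1r1 and Il1rn left of the lower one, and the points of the other members between them.

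The remaining members, Il1rap, Il1rl1 and Sigirr, lay within 2-fold. Il1rap encodes the accessory chain shared by the IL-1, IL-33 and IL-36 receptors. Its brightest probe read 48.7 in Th9+IFNgamma against 36.7 in Th9 (log2 difference 0.41, interval -0.05 to 0.87). A further measured probe, assigned to another transcript of the gene, read 24.3 in Th9+IFNgamma against 29.6 in Th9 (log2 difference -0.28). The 2 probes had opposite signs, both lay within 2-fold, and the gene's other 2 probes were well above background on neither array, so no direction can be given for Il1rap.

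Il1rl1 encodes ST2, the IL-33 receptor, made in membrane-bound and soluble forms from different transcripts. Its 1 measured probe read 42.0 in Th9+IFNgamma against 83.4 in Th9, 1.99-fold lower (log2 difference -0.99, interval -1.44 to -0.54), just short of the 2-fold limit. It passed that limit under 1 of 10 alternative settings, and with normexp it was 1.40-fold lower. The other 2 probes, assigned to a different transcript, were well above background on neither array, at 2.29 and 4.43 in Th9+IFNgamma and 2.52 and 4.02 in Th9. Signal for this gene was thus seen with 1 of 3 probes, and dimly.

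Sigirr, the inhibitory member, read 5174 in Th9+IFNgamma against 8226 in Th9, 1.59-fold lower (log2 difference -0.67, interval -1.07 to -0.27). Its probe was far above background on both arrays. Of all measured genes, 13.2% were as low or lower.

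Gene order on chromosome 1 put members of opposite sign next to each other. From Il1r2 to Il18rap the log2 differences ran -4.65, at most -3.36 for Il1r1, no value for Il1rl2, which was well above background on neither array, -0.99 for Il1rl1, 2.23 for Il18r1 and 3.26 for Il18rap. The sign therefore turned between Il1rl1, which was dim and lay within 2-fold, and Il18r1. Map4k4, the coding gene before Il1r2, had 12143 in Th9+IFNgamma and 11724 in Th9, 1.04-fold higher. After Il18rap, the sodium exchanger genes Slc9a4 and Slc9a2 were well above background on neither array, and Mfsd9 was 1.23-fold higher (55.4 against 45.2). Among the 6 coding genes on each side, Rfx8 and Pou3f3 were also well above background on neither array, and Gm3646 and Tmem182 had no named probe. Cnot11, Rnf149 and Mrps9 were measured and lay within 2-fold. Creg2 read 4.02 in Th9+IFNgamma, not well above background, against 78.4 in Th9, at least 7.07-fold lower. A bound of at least 2-fold in this direction held for 1.72% of the genes detected on any array.

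**Figure D3:**
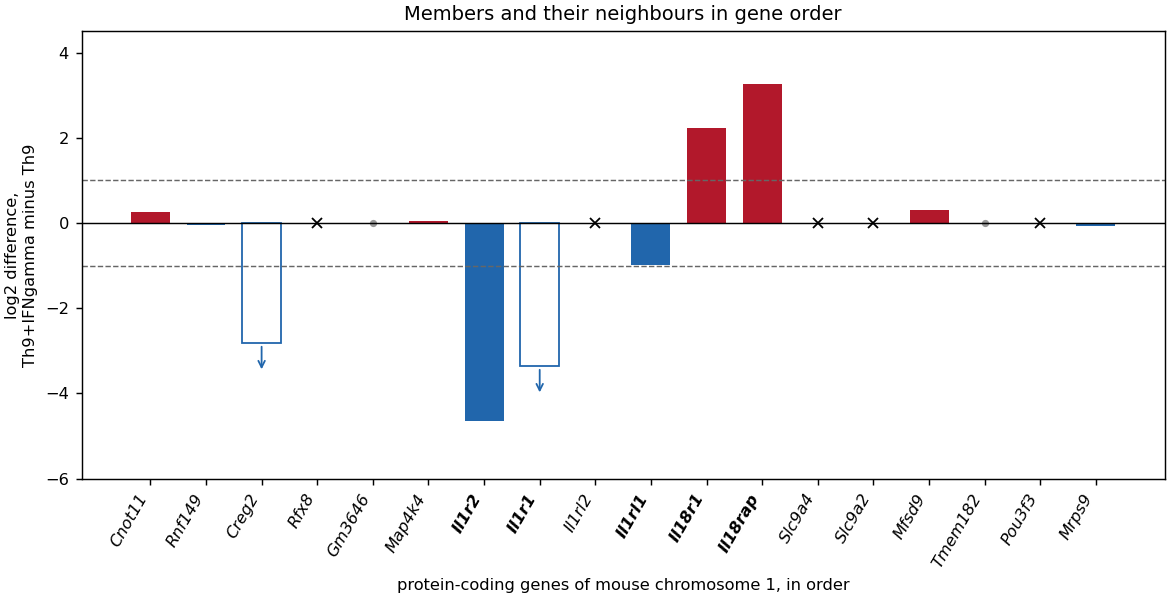
Log2 difference, Th9+IFNgamma minus Th9, for 18 neighbouring protein-coding genes of mouse chromosome 1 in RefSeq order, with members in bold. Open bars with arrows are bounds, crosses mark genes well above background on neither array, grey dots genes with no named probe, and dashed lines 2-fold. Il1r2, Il1r1 and Il1rl1 point down, and Il18r1 and Il18rap, next in order, point up.

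The ligands of these receptors were mostly dark. Of 10 listed genes for IL-1 family ligands and the soluble IL-18 inhibitor, 6 had a named probe and 2 were measured. Il1a, Il1b and Il33 were well above background on neither array, as was Il1f10, which encodes IL-38. Il18, which encodes IL-18, was dim, at 21.0 in Th9+IFNgamma against 17.1 in Th9. Its log2 difference of 0.29 was smaller than the software's error of 0.37 and turned to -0.05 with normexp. Il18bp encodes a secreted protein that captures IL-18, and it is a known IFN-gamma-induced gene. It read 647.4 in Th9+IFNgamma against 88.9 in Th9, 7.28-fold higher (log2 difference 2.86), and its 2 probes both passed 2-fold, with 2.56 as the smaller log2 difference. With normexp the Il18bp difference was 2.19. The inhibitor of IL-18 thus lay on the same side as the 2 receptor chains for it. Il1rl2, Il1rapl1 and Il1rapl2, the other receptors of the family that were listed, were well above background on neither array.

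All 18 listed adaptors and kinases downstream of the receptors were measured, and 14 lay within 2-fold, with a median log2 difference of -0.02 beside -0.01 for all genes. Myd88, the adaptor shared by these receptors, read 6838 in Th9+IFNgamma and 7460 in Th9 (1.09-fold lower). Irak4, the first kinase of the complex, read 260.3 in Th9+IFNgamma against 207.6 in Th9 (log2 difference 0.33), but its probe with the smallest difference had the opposite sign (-0.15), so no direction can be given for it. Traf6, the ubiquitin ligase that follows, was 1.76-fold lower, at 1614 against 2843 in Th9. Among the exceptions, 2 were higher and 2 lower in Th9+IFNgamma, where 5.15% and 7.42% of all measured genes were. Irak2, a kinase that sustains the signal, was 2.27-fold higher (620.1 against 273.0). The exceptions also held 3 Pellino genes, which encode ubiquitin ligases that act on IRAK proteins: Peli1 was 2.29-fold higher (8366 against 3648), Peli2 6.73-fold lower (77.9 against 524.5) and Peli3 2.36-fold lower at low signal (20.5 against 48.5). With normexp, Irak2 (log2 difference 0.94) and Peli3 (-0.54) fell within 2-fold, and Peli2 was at -2.14 instead of -2.75.

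In the NF-kappaB and p38/JNK arm, 19 of 21 measured genes lay within 2-fold, with a median log2 difference of -0.18. At least 2-fold apart were 1 higher and 1 lower gene, beside 5.15% higher and 7.42% lower of all measured genes. Nfkbie, which encodes the inhibitor I-kappa-B epsilon, was 2.51-fold higher in Th9+IFNgamma (2682 against 1067). Nfkbia, which encodes I-kappa-B alpha, was 2.16-fold lower (18861 against 40803), a difference that fell marginally within 2-fold with median scaling. The probe for Rel was well above background on neither array.

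Of 7 measured inflammasome and processing genes, Gsdmd, which encodes the pore-forming gasdermin D, was 2.05-fold higher (4243 in Th9+IFNgamma against 2067 in Th9), a size that 3 of 11 alternatives put just under 2-fold. The other 6 lay within 2-fold and the median log2 difference was 0.36. Casp1, whose product cleaves the precursors of IL-1 beta and IL-18, was 1.58-fold higher (647.1 against 410.4). For IL-12, the cytokine that acts with IL-18, Stat4, which encodes its signal transducer, was 2.56-fold higher (4910 against 1916). Jak2, a kinase bound to the IL-12 receptor, was 2.29-fold lower (2461 against 5626), with a log2 difference of -0.90 by its other probe. Il12rb2, the inducible IL-12 receptor chain, was 1.07-fold higher, at 401.4 against 375.2, within 2-fold.

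**Figure D4:**
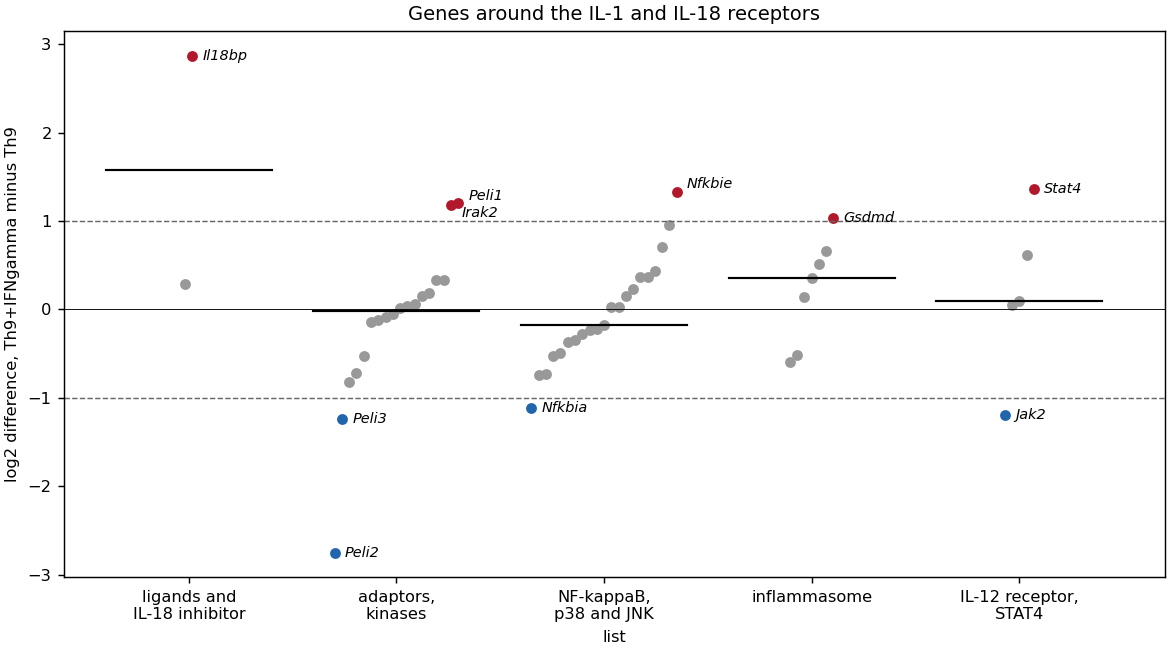
Log2 difference, Th9+IFNgamma minus Th9, for every measured gene of the 5 lists with measured genes, 1 point per gene and the list median as a black bar. Red points are at least 2-fold higher, blue ones at least 2-fold lower, and dashed lines mark 2-fold. Il18bp stands at 2.86 and Peli2 at -2.75, while most adaptors lie near 0.

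Il1r2, Il1rn and Il1rl1 are also expressed by myeloid cells or mast cells, so markers of other cell types were read beside them. The T cell identity was plain: all 12 listed CD4 T cell markers were measured on both arrays. Of 9 neutrophil markers, 7 were well above background on neither array, S100a8, S100a9, Camp, Ngp and Csf3r included. Mpo was within 2-fold, Cxcr2 was detected in Th9 alone (at least 3.03-fold lower, under 2-fold with normexp), and the summed signal was 47.7 in Th9+IFNgamma against 91.7 in Th9. Of 11 macrophage and dendritic cell markers, 7 were well above background on neither array, Lyz2, Itgam and Mertk included. Adgre1 was 7.19-fold lower (25.8 against 185.6), with a log2 difference of -2.85 that normexp moved to -1.45. The other 3 measured markers of this list lay within 2-fold: Csf1r (log2 difference -0.01), Cd14 (0.31) and Flt3 (-0.39). The summed signal, 123.0 in Th9+IFNgamma against 287.4 in Th9, differed mostly through Adgre1. Of 9 markers of mast cells, basophils and type 2 innate lymphoid cells, Mcpt8, Ms4a2, Cpa3 and Gata2 were well above background on neither array. Fcer1a was 2.22-fold higher and Calca 3.01-fold lower, both dim and within 2-fold with normexp. Arg1 was detected in Th9+IFNgamma alone (at least 1.59-fold higher). Prss34 and Il17rb were detected in Th9 alone (at least 1.54-fold and 1.97-fold lower). The list thus went both ways, and its sum was 142.9 in Th9+IFNgamma against 198.1 in Th9. For the B cell list the sum was 938.4 in Th9+IFNgamma against 1464 in Th9, with Cd22 at least 13.3-fold lower (a log2 bound of -3.73, and of -1.71 with normexp) and Pax5 well above background on neither array. For the NK cell list the sum was 7010 in Th9+IFNgamma against 8151 in Th9, with Ncr1 well above background on neither array. Gzma, which T cells also express, was 2.43-fold lower, while the median log2 difference of the 5 measured NK cell markers was 0.25, of opposite sign to the difference in the sum. The 1 CD8 marker with a probe, Cd8a, read 1338 in Th9+IFNgamma against 1074 in Th9. The part of Adgre1-expressing or Cd22-expressing cells in the lower IL-1 gene signals was not tested.

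**Figure D5:**
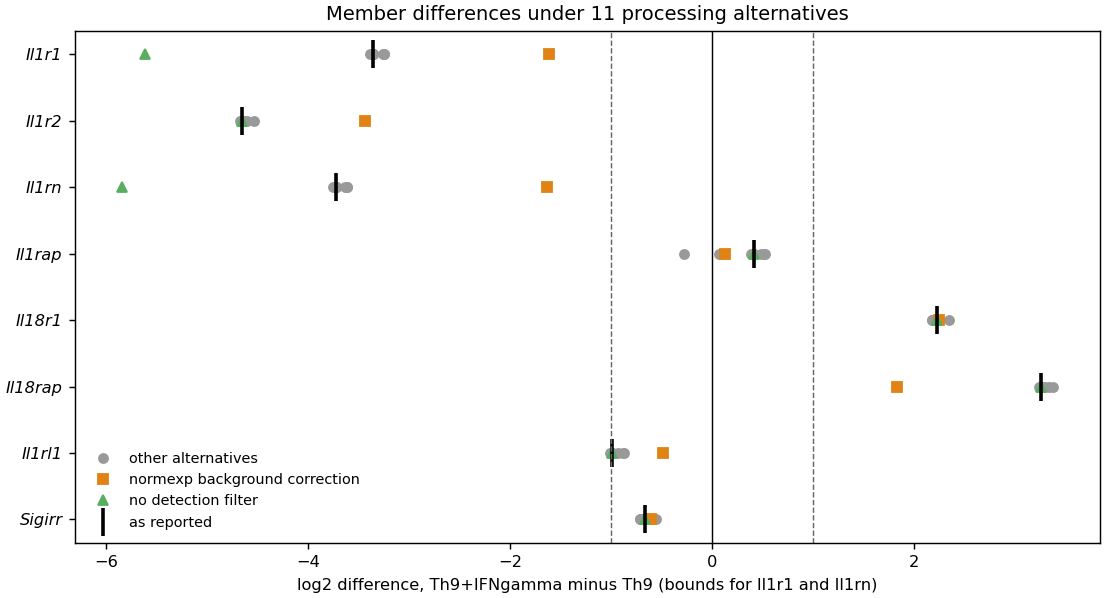
Log2 difference of each member, Th9+IFNgamma minus Th9, as reported (black bar) and under 11 processing alternatives, with bounds for Il1r1 and Il1rn. Dashed lines mark 2-fold. Normexp background correction (orange squares) draws the dim members towards 0, with Il18rap at 1.83 and Il1r2 at -3.44, and Il1rap is the member with values on both sides of 0.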

How the data were processed

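RNA from 2 cultures, 500 ng each, was labelled with Cy3 and hybridised to 1 array per culture, both on 1 slide read in 1 scan. Per the file headers, the authors' intensity values come from Agilent Feature Extraction 10.7.3.1 (10.7 in the submitters' processing notes), which subtracted background and detrended within each array. The background flags were deposited beside them. A deposited table of log2 values matched log2 of the median intensity minus each array's 75th percentile (column medians -4.05 for Th9+IFNgamma and -3.93 for Th9). Its scale, centring and direction are therefore known.

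Log2 intensity was averaged over a probe's spots, without controls or outliers, and each array's 75th percentile subtracted (631.9 for Th9+IFNgamma and 567.0 for Th9). No spot was saturated and no member spot was an outlier. A gene takes its brightest probe measured on both arrays. Probes were named through a RefSeq table of GRCm38.p6 (27050 of 41174 matched), and promoters come from RefSeq. The array headers name another build, so no array coordinates are used. Of the 8 members, 7 had a promoter. Normexp used the median spot signal and an offset of 50. The steps were tested on simulated data, with Python 3.11.15 and limma 3.58.1.

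Members and lists were chosen with earlier results of these data known. The text names all members, listed genes at least 2-fold apart (up to 5 each way per list) and key pathway genes fixed by name, except CD4 T cell markers, whose single values are not reported here. No similarity of pattern was ranked, since 2 arrays give each gene 1 difference.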

Additional observations from a re-analysis of the deposited data

How the results depend on the processing

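No paired analysis was possible because each culture has 1 array, and for the same reason no replicate could be left out. Over the 11 alternatives, Il18r1 (2.18 to 2.34), Il18rap (1.83 to 3.37) and Il1r2 (-4.68 to -3.44) kept their direction and stayed at least 2-fold apart. Il1r1 (-5.62 to -1.62) and Il1rn (-5.85 to -1.64) stayed beyond 2-fold too, as bounds except without the detection filter. The direction of a bound is fixed by the background flags, so the bounds are no check of it. None of these genes has more than 1 measured probe, so choosing or averaging measured probes could not move them. Using the deposited table or keeping outlier spots barely moved them. Sigirr (-0.72 to -0.55) stayed within 2-fold, Il1rl1 ran from -1.01 to -0.49 and Il1rap from -0.28 to 0.52. A signal filter of at least 100 left no value for Il1rl1 and Il1rap. The gap between medians of the IL-1 genes and the IL-18 receptor chains was -3.68 with normexp and -8.36 without a detection filter, where dark probes enter at their own signal. Without that filter 1205 genes were at least 2-fold higher and 1788 lower (632 and 910 as reported), and with normexp 582 were lower. Scaling to the array median gave 772 higher and 776 lower genes, nearly equal numbers, and moved the median of all genes to 0.11. Of 18 listed genes at least 2-fold apart, 8 fell within 2-fold under some alternative and none changed sign. For Cxcr2 and Cd22 the sign of the bound was likewise fixed by the flags. Single spots of probes printed repeatedly had an SD of 0.29 in log2 difference below a signal of 64, against 0.05 for the brightest probes.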
